A study of Homo sapiens with 4 samples.

Results

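The HOX genes are the homeodomain transcription factor genes of the 4 clusters A, B, C and D, and 39 of the 28058 genes in the deposited count table carry such a symbol, the word HOX followed by a cluster letter and a number. All 39 are counted here, 11 in cluster A, 10 in cluster B, 9 in cluster C and 9 in cluster D. The labels name the cells SH-SY5Y, an established human neuroblastoma line that is a cloned subline of SK-N-SH. In 2 samples the cells had been exposed to shock wave treatment (SWT), given as 300 pressure impulses of 0.08 mJ/mm2 at 3 Hz to flasks held at 7 cm from the applicator in a bath at 37 °C, and RNA was taken 6 h later. The other group is 2 control samples of the same line without treatment. Both groups were grown alike, in a high-glucose medium with fetal calf serum, per the labels' protocols. The design text of the series mentions exosomes in place of direct treatment, and which of them was given is unclear. Whether the 2 replicates of a group were separate cultures is not stated, and the spread behind each p-value may therefore be only technical.

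In vertebrates HOX genes give cells their position along the head-to-tail axis of the body. Within a cluster the genes at one end (low paralog numbers) are switched on early and as far forward as the hindbrain, and those at the other end (high numbers) later and farther back, in the tail region and the far parts of the limbs. Genes of the same number in different clusters are paralogs, copies with related protein sequence and often shared roles. The active state is held by Trithorax proteins and the silent state by Polycomb proteins, and cells kept in culture commonly retain the HOX pattern of the body region they came from.

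Total counts were 10043697 and 11686808 in the SWT libraries, against 11647603 and 9888263 in the control libraries, and 15715 to 15988 genes had at least 1 count. Levels are given in CPM, the count scaled to library size, and where a gene has no count the limit is the level of 3 counts, 0.257 to 0.303 CPM by library, which covers counting error only. The libraries go against their label in part, judged by 19 markers of noradrenergic neuroblastoma, the class SH-SY5Y is known for. Of these, 7 were listed at 0 in all libraries, among them PHOX2A, TH, DBH, DDC, CHGA and MYCN. Another 8 reached 1 CPM in every library. They were HAND2, SYT1, GATA2 and SNAP25 (means of 52.0, 32.4, 15.9 and 9.28 CPM) and ISL1, GATA3, CHGB and STMN2 (5.76, 2.73, 1.61 and 1.61 CPM). The list summed to 123 and 113 CPM in the SWT libraries and to 126 and 125 CPM in the control libraries. All 15 mesenchymal markers reached 1 CPM in every library, with sums of 12261 and 13140 CPM in the SWT libraries and 13776 and 12651 CPM in the control libraries. Their levels were uneven. VIM, COL1A1, COL3A1 and FN1 were highest, with means of 3251, 3022, 2914 and 1812 CPM. SNAI2, COL1A2 and DCN were lowest, with 3.23, 2.99 and 2.68 CPM. Over 26 heart muscle markers the sums were 50.6 and 17.0 CPM in the SWT libraries and 14.4 and 408 CPM in the control libraries, so control replicate 2 stands apart. Of the other lists, 2 of 10 endothelial, 1 of 8 leukocyte and 3 of 10 glial markers reached 1 CPM in every library, with sums of 11.8 and 11.2, 45.0 and 47.9, and 7.64 and 7.98 CPM in the SWT libraries, against 10.4 and 13.9, 44.3 and 49.5, and 9.04 and 10.9 CPM in the control libraries. In bulk RNA, fewer cells of a type and less RNA per cell cannot be told apart.

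A gene is called on here where it reached at least 1 CPM in every library, and silent where it stayed under 1 CPM in every library. By this rule 21 HOX genes were on and 15 silent, and 3 lay in between, HOXA4, HOXA6 and HOXB9. The genes on made up 53.8% of the HOX genes, beside 42.2% of all genes in the table. Mean levels of the genes on ran from 2.51 CPM for HOXD4 to 32.4 CPM for HOXB4. The count of genes on was 21 without any one of the libraries, control replicate 2 included.

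**Figure D1:**
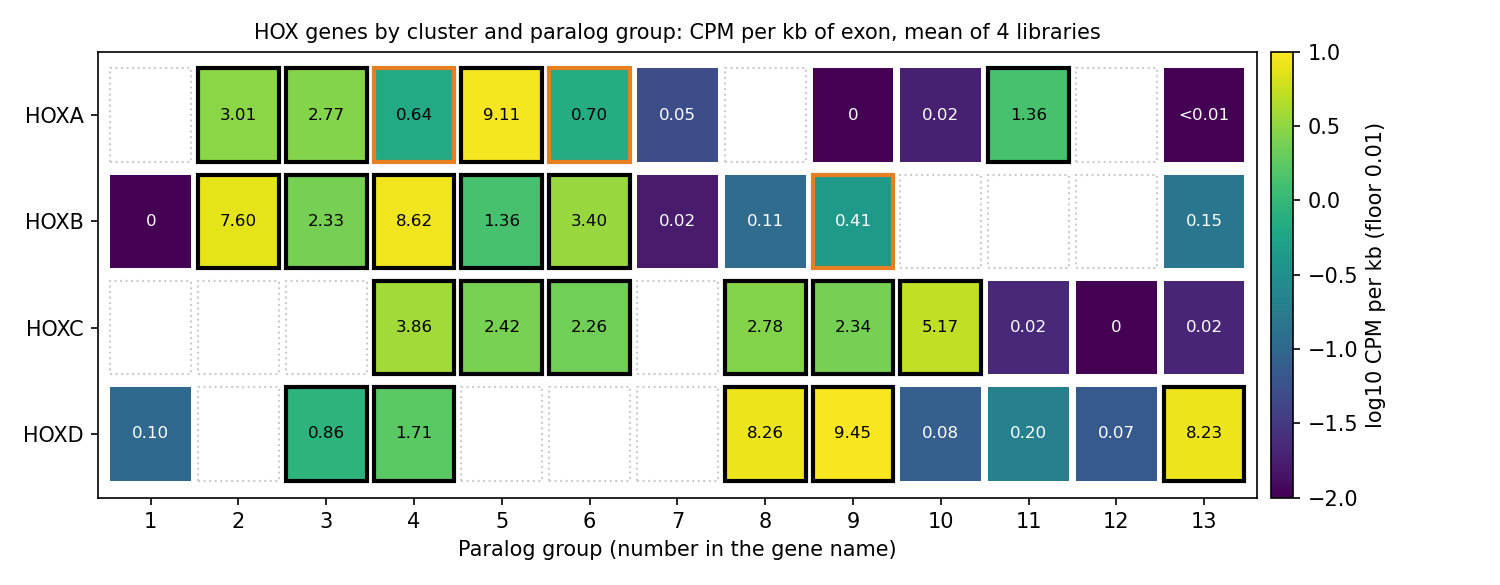
Mean CPM per kb of exon over the 4 libraries for HOX genes, with clusters down the page and paralog groups 1 to 13 across, coloured on a log10 scale with a floor of 0.01. Black frames mark genes on, orange frames the 3 in between, and dotted squares places with no gene shown. Clusters B and C each show an unbroken run of genes on, 5 and 6 long, and cluster D a run of 4, while HOXA11 and HOXD13 stand beyond silent neighbours.

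By paralog number, genes were on along the whole axis and most often at the anterior side. In paralog groups 1 to 4, 9 of 12 genes were on, in groups 5 to 8, 7 of 11, and in groups 9 to 13, 5 of 16. Paralog groups 2, 3 and 5 were on in every cluster that has them, and groups 7 and 12 in none. Scaled to exon length, the anterior, middle and posterior bands held 35.9%, 33.7% and 30.4% of the summed HOX level. The posterior band's level came mainly from HOXD9, HOXD13 and HOXC10, at 9.45 ± 1.16, 8.23 ± 1.31 and 5.17 ± 0.329 CPM per kb (SD over all libraries, n = 4). The other leading genes per kb were HOXA5 at 9.11 ± 0.411, HOXB4 at 8.62 ± 0.538, HOXD8 at 8.26 ± 0.291 and HOXB2 at 7.60 ± 0.800 CPM per kb (SD, n = 4). In the order HOXD9, HOXA5, HOXB4, HOXD8, HOXD13 and HOXB2, each gene differed from the next by less than the larger SD of the pair. The order also depended on the length used. Per kb of the longest transcript HOXB2 and HOXD8 led with 11.4 and 11.3 CPM, beside 9.45 for HOXD9. Per kb of exon bases shared with no other gene, HOXB4 led with 10.4 CPM, and HOXD3 stood at 3.33 CPM. Per kb of all exon, among the 16723 genes with a count and a length, HOXD9 ranked at percentile 71.4. On that scale HOXD3 was the lowest of the genes on, at 0.863 ± 0.133 CPM per kb and percentile 35.3.

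Cluster A lies on the minus strand of chromosome 7 (GRCh38) and had 5 of 11 genes on, among them HOXA2, HOXA3, HOXA5 and HOXA11. HOXA2, the selector gene of the second pharyngeal arch in mice, had 7.04 and 6.95 CPM in the SWT libraries, against 8.18 and 7.48 CPM in the control libraries (log2 fold change -0.17 ± 0.17 SE, adjusted p = 0.929). Both SWT libraries lay under both controls for HOXA2. HOXA3, needed for the thymus and parathyroid in mice, had 13.4 and 11.1 CPM in the SWT libraries, against 11.9 and 11.3 CPM in the control libraries (0.07 ± 0.14, adjusted p = 0.974). HOXA5, which takes part in lung and lower neck patterning in mice, had 16.36 and 15.61 CPM in the SWT libraries, against 15.58 and 14.65 CPM in the control libraries (0.08 ± 0.12, adjusted p = 0.959). The HOXA5 groups missed each other by a narrow margin and those of HOXA3 overlapped.

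HOXA11 stood apart from the other genes on in cluster A, with silent genes on both sides. A gene of the middle limb segment and the uterus, it had 3.57 and 2.23 CPM in the SWT libraries, against 3.27 and 3.44 CPM in the control libraries (-0.23 ± 0.27, adjusted p = 0.938). SWT replicate 2 was the low library and the groups overlapped. On the anterior side of HOXA11, HOXA10 had 1 and 1 counts in the SWT libraries and 1 and 0 in the control libraries, HOXA9 was listed at 0 in all, and HOXA7 had 0 and 1 counts in the SWT libraries and 1 and 3 in the control libraries. On the posterior side, HOXA13, needed for the hand, foot and genital tract, had 0 counts in both SWT libraries and 1 and 0 in the control libraries. Between HOXA3 and HOXA7, HOXA4 had 9 and 8 counts in the SWT libraries, against 22 and 10 in the control libraries, and HOXA6 had 4 and 12 counts in the SWT libraries, against 17 and 7 in the control libraries (log2 fold change of HOXA6 -0.59 ± 0.53, adjusted p = 0.921). These counts are close to the 1 CPM line and put both genes in between.

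The 250 bases before the RefSeq start (GRCh38.p14) of HOXA11 and of its silent posterior neighbour HOXA13 show the promoters on each side of that boundary, from chr7:27185233-27185482 and chr7:27200092-27200341, minus strand, with CpG pairs in capitals.
HOXA11: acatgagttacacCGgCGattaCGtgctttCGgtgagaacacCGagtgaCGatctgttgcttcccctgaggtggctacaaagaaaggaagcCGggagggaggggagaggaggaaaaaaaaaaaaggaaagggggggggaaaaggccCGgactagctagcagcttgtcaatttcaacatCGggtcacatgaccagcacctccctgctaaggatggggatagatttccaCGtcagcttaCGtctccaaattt
HOXA13: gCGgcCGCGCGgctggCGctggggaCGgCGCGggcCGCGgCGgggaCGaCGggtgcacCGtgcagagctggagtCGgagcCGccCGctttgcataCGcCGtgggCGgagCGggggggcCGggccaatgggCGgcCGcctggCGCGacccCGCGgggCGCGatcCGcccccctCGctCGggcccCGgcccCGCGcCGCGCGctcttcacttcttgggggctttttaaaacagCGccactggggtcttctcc
The HOXA11 stretch holds 11 CpG pairs and that of HOXA13 holds 40, so of this pair the promoter of the silent gene is the more CpG-rich.

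Cluster B lies on chromosome 17 (chr17:48528526-48729178, minus strand) and had an unbroken run of genes on, HOXB2 to HOXB6. HOXB2, which acts in the hindbrain segment of the facial nerve, had 18.5 CPM in both SWT libraries, against 14.98 and 19.00 CPM in the control libraries (0.13 ± 0.13, adjusted p = 0.928). HOXB3, a hindbrain paralog of HOXA3, had 18.4 and 16.0 CPM in the SWT libraries, against 17.5 and 17.6 CPM in the control libraries (-0.03 ± 0.12, adjusted p = 0.992). HOXB4, known for expanding blood stem cells when overexpressed, had 35.2 and 32.2 CPM in the SWT libraries, against 31.5 and 30.5 CPM in the control libraries (0.12 ± 0.09, adjusted p = 0.910). Of these only HOXB4 had groups that did not overlap, with both SWT libraries above both controls. HOXB5, which acts in the nerve cells of the gut, had 2.68 and 3.00 CPM in the SWT libraries, against 3.27 and 2.12 CPM in the control libraries (0.06 ± 0.28, adjusted p = 0.993). HOXB6 had 9.02 and 8.40 CPM in the SWT libraries, against 8.18 and 9.80 CPM in the control libraries (-0.04 ± 0.16, adjusted p = 0.992). The controls bracketed the SWT libraries for both.

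The genes on either side of that run were silent or in between. HOXB1, the most anterior gene, which marks one hindbrain segment, was listed at 0 in all libraries. HOXB7 had 0 counts in both SWT libraries and 0 and 1 in the control libraries, and HOXB8, known from mouse blood progenitors, had 0 and 3 counts in the SWT libraries, against 3 and 4 in the control libraries. HOXB9, a gene of the thoracic level, had 15 and 8 counts in the SWT libraries, against 8 and 14 in the control libraries (log2 fold change 0.05 ± 0.50, adjusted p = 0.997). HOXB13, known from the prostate, had 2 and 6 counts in the SWT libraries, against 10 and 5 in the control libraries. HOXB9 thus crossed the 1 CPM line within both groups, and HOXB13 stayed under it in all libraries.

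Cluster C lies on chromosome 12 (chr12:53938765-54056030, plus strand) and had the longest run, with all 6 genes from HOXC4 to HOXC10 on and the 3 posterior genes silent. HOXC4 had 10.4 and 10.1 CPM in the SWT libraries, against 10.2 and 11.4 CPM in the control libraries (-0.07 ± 0.14, adjusted p = 0.974). HOXC5 had 4.66 and 4.55 CPM in the SWT libraries, against 3.62 and 4.65 CPM in the control libraries (0.17 ± 0.22, adjusted p = 0.941). HOXC6, which marks spinal motor neurons at the forelimb level, had 8.23 and 8.75 CPM in the SWT libraries, against 8.18 and 6.87 CPM in the control libraries (0.17 ± 0.16, adjusted p = 0.928). HOXC6 was higher in both SWT libraries than in both controls, and the other two genes had overlapping groups. In RefSeq, HOXC4 and HOXC5 share the same annotated start, with a window at chr12:54016638-54016937, so the promoters of these 2 genes cannot be separated by that annotation.

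Farther back in cluster C, HOXC8, a gene of the lower neck and upper trunk, had 4.86 and 5.57 CPM in the SWT libraries, against 4.99 and 5.56 CPM in the control libraries (-0.01 ± 0.19, adjusted p = 0.998). HOXC9, which sets thoracic motor neuron identity, had 4.46 and 3.34 CPM in the SWT libraries, against 4.39 and 3.54 CPM in the control libraries (-0.04 ± 0.23, adjusted p = 0.996). HOXC10, a gene of the lumbar level, had 12.10 and 11.06 CPM in the SWT libraries, against 12.14 and 12.93 CPM in the control libraries (-0.11 ± 0.14, adjusted p = 0.938). SWT values for HOXC10 lay just under both controls, and the groups of HOXC8 and HOXC9 overlapped. Beyond HOXC10 the level dropped: HOXC11 had 0 and 1 counts in the SWT libraries and 0 and 2 in the control libraries, HOXC12 was listed at 0 in all, and HOXC13, a hair follicle gene, had 1 and 0 counts in the SWT libraries and 0 and 1 in the control libraries.

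Cluster D lies on chromosome 2 (chr2:176092891-176190907, plus strand) and had 5 of 9 genes on, the 4 adjacent genes HOXD3, HOXD4, HOXD8 and HOXD9, and HOXD13. At the anterior side HOXD1, known from pain-sensing neurons in mice, was silent with 1 and 4 counts in the SWT libraries and 2 and 2 in the control libraries. HOXD3, a gene of the upper neck vertebrae in mice, had 3.47 and 3.00 CPM in the SWT libraries, against 3.36 and 2.43 CPM in the control libraries (0.14 ± 0.26, adjusted p = 0.967). HOXD4, a hindbrain and neck gene, had 2.38 and 2.32 CPM in the SWT libraries, against 3.01 and 2.32 CPM in the control libraries (-0.20 ± 0.28, adjusted p = 0.95). The groups of HOXD3 and HOXD4 overlapped. HOXD8 had 20.7 and 21.6 CPM in the SWT libraries, against 22.0 and 22.5 CPM in the control libraries (-0.07 ± 0.11, adjusted p = 0.952). HOXD9, which acts in the upper limb segment, had 17.1 and 18.4 CPM in the SWT libraries, against 20.2 and 15.1 CPM in the control libraries (0.00 ± 0.14, adjusted p = 0.998). The controls bracketed the SWT libraries for HOXD9, while both SWT libraries lay under both controls for HOXD8.

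HOXD13, which shapes the digits and is mutated in inherited fused and extra fingers, was on although it is the most posterior gene of the cluster. It had 15.9 and 17.4 CPM in the SWT libraries, against 17.8 and 22.6 CPM in the control libraries. Both SWT libraries lay under both controls, and the log2 fold change was -0.27 (95% interval -0.55 to 0.01), with an adjusted p of 0.843 in edgeR. Leaving out control replicate 2 gave -0.094, and leaving out control replicate 1 gave -0.44. Between HOXD9 and HOXD13 the 3 genes HOXD10, HOXD11 and HOXD12 were silent. HOXD10, a gene of lumbar motor neurons, had 1 and 1 counts in the SWT libraries and 3 and 4 in the control libraries. HOXD11, which acts with HOXA11 in the middle limb segment, had 6 and 3 counts in the SWT libraries and 6 and 3 in the control libraries, and HOXD12 had 2 and 0 counts in both groups. Scaled to exon length, HOXD13 stood at 8.23 ± 1.31 CPM per kb and its neighbour HOXD12 at 0.0688 ± 0.0799 CPM per kb (SD, n = 4).

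The 250 bases before the RefSeq start of 4 cluster D genes are shown because they lie on both sides of the ends of that silent stretch, with HOXD8 as the gene on nearest to HOXD10 among those with a promoter window (HOXD9 has none). They are read on the plus strand of GRCh38.p14, with CpG pairs in capitals, from chr2:176092471-176092720 for HOXD13 (on), chr2:176099545-176099794 for HOXD12 (silent), chr2:176116528-176116777 for HOXD10 (silent) and chr2:176129455-176129704 for HOXD8 (on).
HOXD13: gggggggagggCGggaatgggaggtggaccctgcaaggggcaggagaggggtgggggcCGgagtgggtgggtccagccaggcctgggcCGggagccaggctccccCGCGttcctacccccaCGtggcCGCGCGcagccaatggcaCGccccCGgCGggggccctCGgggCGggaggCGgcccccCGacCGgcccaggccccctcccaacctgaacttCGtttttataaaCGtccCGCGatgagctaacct
HOXD12: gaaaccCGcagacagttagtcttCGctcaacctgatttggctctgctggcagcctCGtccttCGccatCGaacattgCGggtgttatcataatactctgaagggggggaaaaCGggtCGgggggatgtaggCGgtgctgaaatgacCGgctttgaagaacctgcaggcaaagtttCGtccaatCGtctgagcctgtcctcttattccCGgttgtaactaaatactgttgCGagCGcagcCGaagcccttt
HOXD10: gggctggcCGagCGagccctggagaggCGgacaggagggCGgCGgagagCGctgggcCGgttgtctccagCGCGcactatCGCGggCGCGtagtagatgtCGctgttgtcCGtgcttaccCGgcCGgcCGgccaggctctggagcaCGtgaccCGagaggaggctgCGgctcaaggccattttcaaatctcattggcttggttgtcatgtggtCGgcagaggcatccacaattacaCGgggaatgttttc
HOXD8: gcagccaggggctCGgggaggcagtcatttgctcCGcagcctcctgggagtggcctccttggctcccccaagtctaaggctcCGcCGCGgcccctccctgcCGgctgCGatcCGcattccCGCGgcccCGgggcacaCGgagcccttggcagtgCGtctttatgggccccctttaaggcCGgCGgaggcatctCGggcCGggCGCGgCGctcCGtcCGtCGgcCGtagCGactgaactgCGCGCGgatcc
They hold 21, 16, 23 and 28 CpG pairs in that order. The letters TATAAA occur in the HOXD13 stretch close to the start, and in none of the other three.

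A RefSeq promoter window of 300 bases, 250 before to 50 after the start, was at hand for 20 of the 39 HOX genes, 18 of them with a single window. Over these 18 genes the 8 on had 4 to 34 CpG pairs with a median of 15, the 8 silent had 11 to 44 with a median of 25, and the 2 in between had 27 and 29, beside a median of 14 over all 35116 windows. Searched on both strands, TATAAA was found in 1 of 8 windows of genes on and 1 of 8 of silent genes, beside 11.5% of all windows. CCAAT was found in 6 of 8 and 7 of 8, beside 34.6%, and TGATTNAT, a site form bound by HOX and PBX pairs, in 1 of 8 and 1 of 8, beside 2.82%. GCCATNTT, the YY1 site, was found in 3 of 8 and 1 of 8, beside 6.58%. The windows of HOXC4 and HOXC5 are the same sequence and are counted for each.

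**Figure D2:**
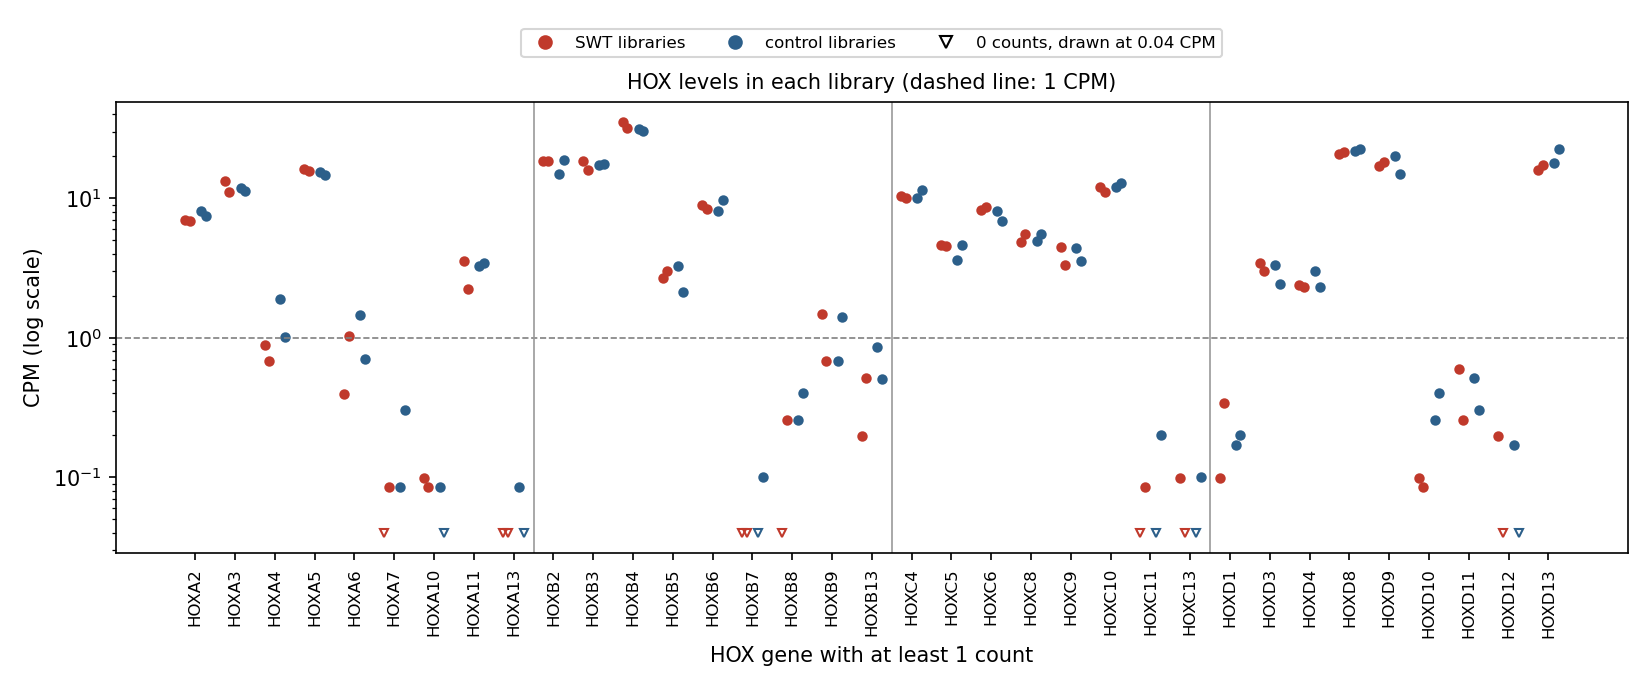
CPM of the HOX genes with a count in the 2 SWT libraries (red, left) and the 2 control libraries (blue, right), on a log scale, grouped by cluster A to D, with counts of 0 drawn as open triangles at 0.04 CPM. The genes on lie above the dashed line at 1 CPM in every library, and the silent genes lie below it.

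Part of a low count can depend on the annotation used for counting, which is not given in the sources used here. In GENCODE release 29, 7 of the 15 silent genes share no exon base with another gene on either strand (HOXB1, HOXB7, HOXB8, HOXB13, HOXC11, HOXC12 and HOXD12), so none of their exon bases is ambiguous between genes in that annotation. HOXA7 and HOXD1 have 37.5% and 41.9% of their exon bases to themselves, HOXA9 73.0% and HOXA10 73.7%. In RefSeq a read-through gene, HOXA10-HOXA9 (chr7:27162438-27180239), spans HOXA9 (chr7:27162438-27165537) and HOXA10 (chr7:27170605-27179861), and the table lists it at 0 in all libraries. The part of such overlap in the low counts of HOXA9, HOXA10, HOXA7 and HOXD1 was not tested. Among the genes on, HOXD4 and HOXD3 have 19.5% and 25.9% of their exon bases to themselves, and per kb of those bases they would stand at 8.77 and 3.33 CPM, beside 1.71 and 0.863 CPM per kb of all exon. An exact 0 in this table is also found for genes that every cell uses. PSMB3, BAG6, DDX39B, CWC25 and PFDN6, chosen after their values were seen, were listed at 0 in all libraries. The ribosomal protein gene RPS18 had 7 counts in all, beside 30911 for RPS19. DDX39B, BAG6, RPS18 and PFDN6 lie on chromosome 6 between 31530219 and 33298401. PSMB3 and CWC25 lie on chromosome 17 between 38752736 and 38825481, and RPL23 (chr17:38847865-38853843) had 27868 counts. None of these genes lies in a HOX cluster, and whether HOX counts are affected in the same way was not tested. HOXA9, HOXB1 and HOXC12 are therefore given as listed at 0 and not as absent. The same limit holds for genes of the other lists with counts at or near 0, among them PBX2, RXRB, RING1, PCGF2 and EPOP.

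**Figure D3:**
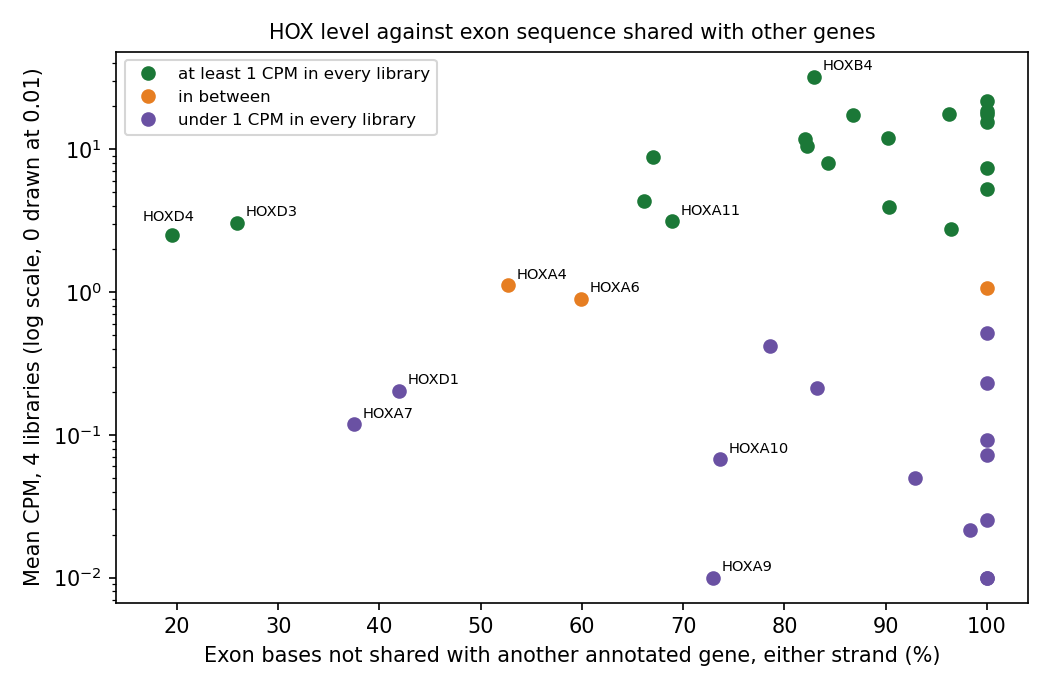
Mean CPM of the HOX genes (log scale, 0 drawn at 0.01) against the percentage of its exon bases shared with no other annotated gene on either strand. Green points are genes on, orange in between and violet silent. Silent genes occur both at 100% and at 37.5% (HOXA7), and genes on as low as 19.5% (HOXD4).

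Treated and untreated cells were compared to see which genes respond to SWT at 6 h, and no HOX gene passed the test. Of the 24 HOX genes with enough counts to be tested, 0 were called by edgeR at an adjusted p of 0.05, beside 0% of the 12399 genes tested (0 genes), and 0 had an unadjusted p under 0.05, beside 5.77% of all tested genes. DESeq2 and limma-voom also called 0 HOX genes, beside 0 of all 17737 and 0 of all 12399 genes they tested. The smallest adjusted p of a HOX gene was 0.843, for HOXD13 and for HOXA4, whose log2 fold change was -0.91 (95% interval -1.87 to 0.05). Fold changes were above 0 for 9 and below 0 for 15 of the 24 genes, with a median of -0.02, beside 0.00 for all tested genes. That median turned to 0.04 without SWT replicate 2 and was -0.09 without SWT replicate 1. The groups did not overlap for 8 of the 24, 33.3%, beside 35.3% of all tested genes, so that share lies near the background. In 3 of these 8 (HOXA5, HOXB4 and HOXC6) the SWT libraries were higher, and in 5 (HOXA2, HOXA4, HOXC10, HOXD8 and HOXD13) lower.

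The intervals limit how large a HOX response could be in these libraries. The 95% interval of the log2 fold change lay within 1 unit of 0 for 21 of the 24 genes and within 0.5 for 11, and it reached from 0.19 (HOXB4) to 1.12 (HOXA6) on either side of the estimate. The genes whose interval reached past 1 unit were HOXA4, HOXA6 and HOXB9, the 3 genes near 1 CPM. Calls over all genes did depend on single libraries. Without SWT replicate 1 or 2, 0.346% and 0.135% of genes were called, and without control replicate 1 or 2, 0.978% and 1.6%. Without the filter on low counts 0.355% were called, with the replicate number as a block 0.00807% and with crossed numbers 0.782%, and in each of these fits 0 HOX genes were called.

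**Figure D4:**
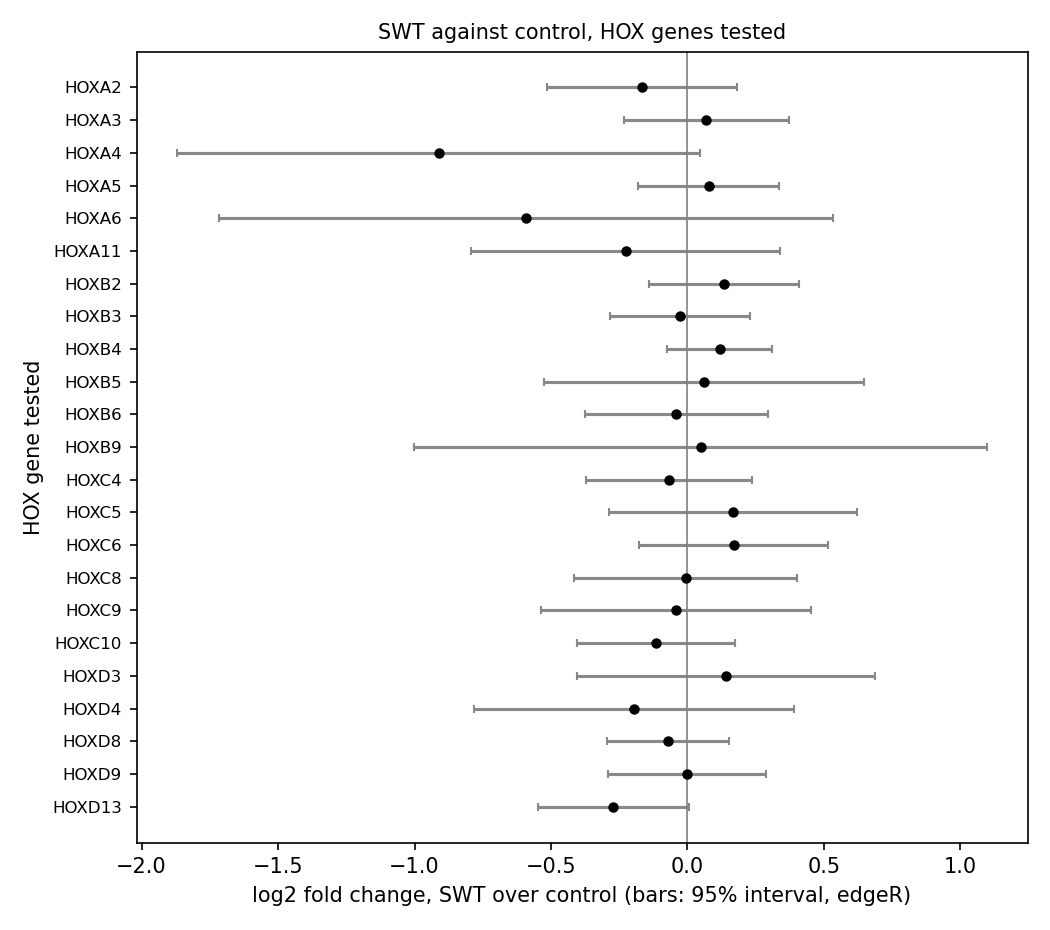
Log2 fold change, SWT over control, of the HOX genes tested, with 95% intervals from edgeR's quasi-likelihood fit over 12399 genes. All intervals include 0, and the widest belong to HOXA4, HOXA6 and HOXB9.

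Summed over its genes, cluster D differed most between the groups, and no cluster passed a test. Cluster A summed to 44.8 and 39.9 CPM in the SWT libraries, against 45.2 and 41.4 CPM in the control libraries (log2 difference -0.03, exact permutation p = 0.667). For cluster B the sums were 85.6 and 79.7 CPM in the SWT libraries, against 77.2 and 81.4 CPM in the control libraries (0.06, exact permutation p = 0.667). For cluster C they were 44.8 and 43.5 CPM in the SWT libraries, against 43.5 and 45.3 CPM in the control libraries (-0.01, exact permutation p = 1). Only cluster D had groups that did not overlap, with 60.5 and 63.4 CPM in the SWT libraries, against 67.6 and 65.9 CPM in the control libraries (-0.11, exact permutation p = 0.333). Two-sided, 2 samples against 2 cannot give a p below 0.333. In cluster D the group means were 61.9 CPM (SWT) and 66.7 CPM (control), and those of HOXD13 alone were 16.6 and 20.2 CPM. Much of the gap in cluster D thus lay in this gene. All 39 genes together summed to 236 and 226 CPM in the SWT libraries, against 233 and 234 CPM in the control libraries (-0.02, exact permutation p = 1).

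Cluster B held the largest share of HOX counts, 34.8 ± 1.34%, followed by D with 27.7 ± 1.41%, C with 19.0 ± 0.314% and A with 18.4 ± 0.894% (SD, n = 4). Scaled to exon length the order of B and D turned round, with 32.0% for D, 26.5% for B, 20.9% for C and 20.6% for A.

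**Figure D5:**
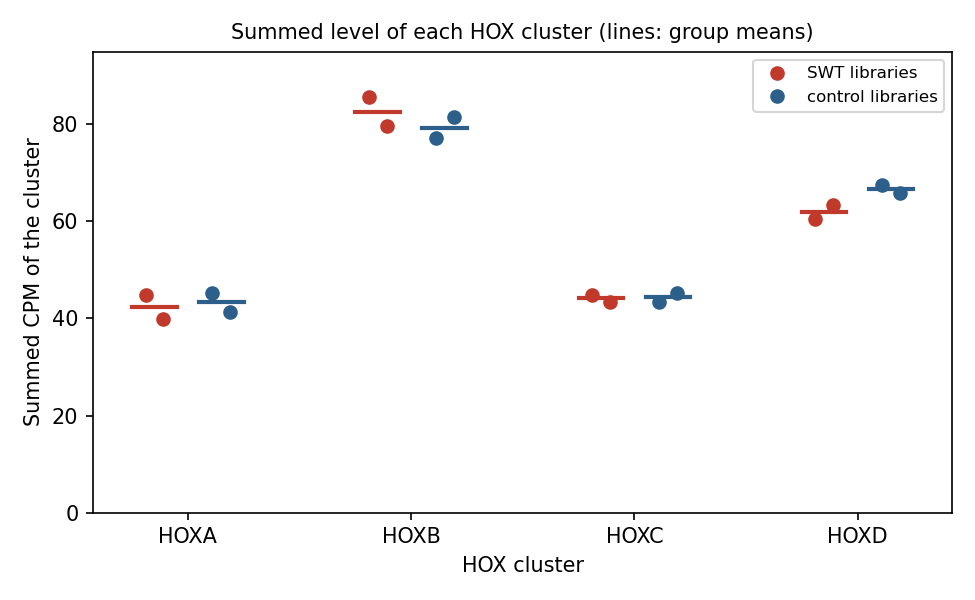
Summed CPM of the HOX genes of each cluster in the 2 SWT libraries (red, left) and the 2 control libraries (blue, right), with lines at the group means. The groups overlap in clusters A, B and C, and in cluster D both SWT libraries (60.5 and 63.4 CPM) lie under both controls (67.6 and 65.9 CPM).

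The table lists 18 noncoding RNAs of the clusters, and 5 of them were on, in clusters A, B and D. HAGLR, transcribed beside HOXD1 and HOXD3, had 19.6 and 23.3 CPM in the SWT libraries, against 15.3 and 18.3 CPM in the control libraries (log2 fold change 0.36 ± 0.13, adjusted p = 0.838). HOXD-AS2, antisense in the HOXD8 region, had 6.94 and 5.49 CPM in the SWT libraries, against 4.65 and 3.94 CPM in the control libraries (0.52 ± 0.20, adjusted p = 0.838). HOTAIRM1, a noncoding RNA at the anterior end of cluster A, had 10.4 CPM in both SWT libraries, against 12.1 and 13.2 CPM in the control libraries (-0.28 ± 0.14, adjusted p = 0.843). In these 3 of the 6 noncoding RNAs tested the groups did not overlap, beside 35.3% of all tested genes. HAGLR and HOXD-AS2 had an unadjusted p under 0.05 in edgeR, 2 of 6 beside 5.77% of all tested genes, and 0 of the 6 passed after adjustment, beside 0% of all tested genes. HOXA-AS2 had 5.06 and 3.17 CPM in the SWT libraries, against 4.30 and 2.93 CPM in the control libraries (0.15 ± 0.26, adjusted p = 0.964). HOXB-AS1 had 1.09 and 2.32 CPM in the SWT libraries, against 1.38 and 2.12 CPM in the control libraries (0.01 ± 0.39, adjusted p = 0.998). HOXA11-AS, the partner of HOXA11, lay in between with 14 and 9 counts in the SWT libraries, against 13 and 8 in the control libraries (0.12 ± 0.46, adjusted p = 0.991). The kit was stranded, but the strand setting of the counting is not given in the sources used here, so reads of a HOX gene and its antisense partner may not have been told apart.

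The other 12 were silent. HOTAIR, which lies between HOXC11 and HOXC12, had 1 and 0 counts in the SWT libraries and 1 and 0 in the control libraries, and HOTTIP, at the HOXA13 end, was listed at 0. HOXA10-AS, HOXC-AS2 and HOXC13-AS were listed at 0 as well. HOXA-AS3, HOXB-AS3, HOXC-AS1, HOXC-AS3, FLJ12825 and HAGLROS had 0 to 3 counts in a library. The 6 rows of microRNA genes in the clusters held 0 counts, and a poly(A) library of long fragments is not made to measure such small RNAs.

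Genes for the proteins that HOX factors bind DNA with were mostly on at the RNA level. Of 9 cofactor genes 6 were on. MEIS3 had 6.05 and 7.03 CPM in the SWT libraries, against 9.30 and 8.29 CPM in the control libraries (log2 fold change -0.42 ± 0.17, adjusted p = 0.838). MEIS2, PBX3, PKNOX1 and MEIS1 averaged 93.5 ± 2.65, 60.4 ± 2.24, 23.4 ± 1.12 and 9.54 ± 0.931 CPM over all libraries (SD, n = 4). PBX2, PBX4 and PKNOX2 were silent, with the limit on counts at or near 0 given above. The list had 0 calls, beside 0% of all tested genes, and a median log2 fold change of -0.01.

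Genes that keep HOX clusters active or silent were also present, with 0 calls in each list, beside 0% of all tested genes. Of 12 genes of Polycomb complex PRC2, 11 were on, led by RBBP7 (319 ± 2.39 CPM) and RBBP4 (182 ± 8.05), with the H3K27 methyltransferase EZH2 at 95.7 ± 7.77 CPM and SUZ12 at 77.5 ± 4.40 CPM (SD, n = 4), and EPOP was listed at 0. Of 16 PRC1 genes 13 were on, among them PHC2 at 140.2 ± 2.51 CPM and the ubiquitin ligase RNF2 at 41.5 ± 5.19 CPM, with BMI1 in between and RING1 and PCGF2 listed at 0. All 12 Trithorax and demethylase genes were on, led by ASH1L at 215 ± 17.3 CPM and KMT2A, a methyltransferase that maintains HOX expression, at 151 ± 20.3 CPM. Median log2 fold changes were 0.01, 0.04 and 0.00 for PRC2, PRC1 and Trithorax, beside 0.00 for all tested genes. The retinoic acid pathway, which switches on anterior HOX genes in embryos, had 10 of 18 genes on, among them ALDH1A1 at 278 ± 12.1 CPM, CRABP2 at 126 ± 14.9 CPM and the receptors RARG, RARB, RXRA and RARA at 80.2 ± 5.89, 49.5 ± 3.18, 41.3 ± 1.21 and 38.8 ± 3.16 CPM (SD, n = 4). Its silent members included RXRB, RXRG, ALDH1A2, ALDH1A3, CYP26A1, CYP26C1 and CRABP1, with the limit on counts at or near 0 given above. The pathway's median log2 fold change was -0.06. The CDX genes, which activate central and posterior HOX genes in embryos, and the other ParaHox genes (CDX1, CDX2, CDX4, GSX1, GSX2 and PDX1) were all listed at 0.

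Other position genes can be set beside the HOX pattern. Of 15 head and forebrain genes 4 were on, EN1 at 3.78 ± 0.613, LHX2 at 3.03 ± 0.625, OTX1 at 2.25 ± 0.416 and DMBX1 at 1.68 ± 0.518 CPM (SD, n = 4), while OTX2, EMX1, EMX2, SIX6, RAX, EN2, BARHL1 and BARHL2 were listed at 0 and SIX3 was silent. Of 19 limb, trunk and heart genes 11 were on, the highest being PRRX1, a limb and facial mesenchyme factor, at 465 ± 17.2 CPM, NR2F2 at 120 ± 9.57, HAND2 at 52.0 ± 2.24, NR2F1 at 49.1 ± 2.03, TBX18 at 33.4 ± 1.79 and GATA4 at 22.2 ± 1.14 CPM (SD, n = 4). The silent ones included TBX5 and TBX4, the selector genes of the forelimb and the hindlimb, with SHOX, HAND1, MEOX1 and MEOX2. Both lists had 0 calls, beside 0% of all tested genes, with median log2 fold changes of -0.14 and -0.03. Control replicate 2 held the most heart muscle transcripts, and of the genes of the heart TBX5 had 0 and 1 counts in the SWT libraries, against 0 and 5 in the control libraries, the 5 in that library. GATA4 had 22.7 and 22.7 CPM in the SWT libraries, against 22.9 and 20.5 CPM in the control libraries, and NKX2-5 had 3.77 and 3.77 CPM in the SWT libraries, against 3.62 and 4.24 CPM in the control libraries. These 3 genes were chosen after their values were seen.

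Around the clusters, coding genes within 500 kb were on in 2 of 3 cases at cluster A, 10 of 18 at B, 14 of 19 at C and 2 of 3 at D. Of 17 listed genes in or near the clusters 11 were on, led by HNRNPA1 at 777 ± 29.9 CPM, CBX5 at 314 ± 20.6 and TAX1BP1 at 141 ± 4.61 CPM. CALCOCO2, MTX2 and LNPK followed at 132 ± 5.05, 90.3 ± 1.81 and 79.5 ± 5.12 CPM (SD, n = 4). The list had 0 calls, beside 0% of all tested genes, and a median log2 fold change of 0.05. EVX1 and EVX2, the homeobox genes just beyond HOXA13 and HOXD13, were silent, so HOXD13 was on between a silent EVX2 and a silent HOXD12. SKAP1, PRAC1, PRAC2 and TTLL6, in or near cluster B, were silent too.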

How the data were processed

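Poly(A) RNA of 4 samples was sequenced, per the labels' protocols. The authors deposited raw counts per gene for 28058 genes, and log2 values for 17151 genes, which served only as an alternative and were tested as they stand. Trimmomatic 0.36, FastQC 0.11.5, STAR 2.5.3a, HTSeq, DESeq2 and the build hg38 are named in the submitters' processing notes; the annotation and strand setting are not given in the sources used here. Groups came from the sample titles.

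Counts were fitted with edgeR 4.0.16 (R 4.3.3, TMM factors, filterByExpr, quasi-likelihood F-test) over 12399 genes, with Benjamini-Hochberg adjustment and a threshold of 0.05. CPM use TMM-scaled totals, so a shift common to all genes is not seen. Standard errors are the fold change over the square root of F, and intervals are approximate. The biological coefficient of variation was 4.32%. Cluster sums were compared with an exact two-sided permutation test. Levels between genes were compared per kb of GENCODE release 29 exons, matched by symbol, and promoters came from RefSeq on GRCh38.p14.

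The HOX genes kept by filterByExpr were tested, and some named results are not reported here. Of each list the 6 highest genes on were named at most, except for the cell type markers and the limb, trunk and heart genes. Every noncoding RNA of the clusters in the table was named. The members and lists were chosen with earlier results of these data known. Alternatives were DESeq2 1.42.0 and its size factors, upper-quartile factors, limma-voom and limma 3.58.1 on the deposited log2 values, other filters and thresholds, a replicate block and leaving out each library. A crossed block was added after seeing the data. Plots were drawn with matplotlib 3.10.9 (Python 3.11.15).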

Additional observations from a re-analysis of the deposited data

How the results depend on the processing

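No HOX gene was called under any alternative fit, with the threshold at 0.1 included. For all genes the count of calls, 0 in the reported fit, was 63 with no filter and 17 to 203 without 1 library. Whether samples of the same replicate number were paired is not stated. Same-numbered deviations correlated at -0.264 across 12399 genes, and this value alone cannot decide it. With the replicate number as a block 1 gene was called, 0 of them HOX, and with crossed numbers, added after seeing the data, 97 and 0. The cause was not tested.

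Genes on numbered 13 at 5 CPM or more. The share of HOX counts per kb of exon was 20.6% for A, 26.5% for B, 20.9% for C and 32.0% for D, and without each cluster's most abundant gene 32.3% for B and 21.4% for C. The median CPM per kb of the genes on, averaged over libraries, was 2.85 over all exon bases, 3.81 over unshared exon bases and 3.82 over the longest transcript. Without 1 library, log2 differences of the cluster sums ran from -0.118 to 0.051 for A, 0.0067 to 0.11 for B, -0.036 to 0.022 for C, -0.141 to -0.074 for D and -0.046 to 0.012 for all.

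Small fold changes turned their sign. HOXD9 was 0.0035 with DESeq2, 0.0083 with limma-voom, 5e-04 on the deposited log2 values and 0.011 with the replicate block. Without 1 library, values ran from -0.070 to 0.21 for HOXA3, -0.59 to 0.092 for HOXA11, -0.035 to 0.31 for HOXB2, -0.13 to 0.075 for HOXB3, -0.20 to 0.42 for HOXB5, -0.17 to 0.090 for HOXB6, -0.15 to 0.015 for HOXC4, -0.014 to 0.35 for HOXC5, -0.11 to 0.082 for HOXC8, -0.25 to 0.17 for HOXC9, -0.058 to 0.41 for HOXD3, -0.36 to 0.014 for HOXD4 and -0.19 to 0.24 for HOXD9. The other genes on named in the report kept their sign, with -0.22 to -0.096 for HOXA2, 0.036 to 0.12 for HOXA5, 0.055 to 0.18 for HOXB4, 0.058 to 0.31 for HOXC6, -0.18 to -0.049 for HOXC10, -0.10 to -0.044 for HOXD8 and -0.44 to -0.094 for HOXD13. With 2 samples a group, and counts under 50 in HOXA11, HOXB5, HOXD3 and HOXD4, changes smaller than the intervals in the report were not detectable at this depth.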
